A study of Mus musculus with 6 samples.

Results

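This account concerns 9 epithelial genes, Cldn2, Mmp7, Calml3, Slc7a9, Cuzd1, Prom1, Iyd, Lrp2 and Kcnk1, out of 18193 genes that the arrays of mouse white fat could name. They were chosen by their measured levels, as genes high in the AFO arrays of pools 1 and 3 and not high in AFO pool 2 or in any control array. Their elevation in those arrays is therefore how they were found and is given as a description, without a test. They are read by 13 probe sets. The probe set with the highest mean over the 6 arrays stands for each gene, and the others are given beside it.

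The samples were total RNA from epididymal fat, a visceral white depot, of chow-fed male C57BL/6 mice, 16 weeks old and fed ad libitum. All animals carried floxed copies of Fto, which encodes a demethylase acting on RNA. The 3 control arrays came from FTO flox/flox mice and the 3 AFO arrays from Adiponectin-cre FTO flox/flox mice, in which Cre is driven by regulatory sequence of the fat cell gene for adiponectin. Each array measured its own RNA pool, and the number of mice in a pool is not given in the sources used here. Values are log2 expression levels after RMA, so a difference of 1 is a doubling, and the number of arrays limits their precision.

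Simple epithelia line ducts and tubules, and those that move water and solutes carry pore-forming claudins in their junctions, transporters and endocytic receptors on an apical brush border, and potassium channels that set the membrane voltage. In the male tract, the efferent ducts that drain the testis are built from absorptive cells with such a border and from cells with motile cilia, and they lead into the epididymis, whose secreted lipocalins and defence proteins change along its length. The epididymal fat pad lies against these ducts. Kidney tubules, thyroid, pancreas and gut express several of the same genes.

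The labelled tissue was borne out by its markers in every array. Adipoq, which encodes adiponectin, read 13.14 to 13.43, and the 8 measured adipocyte markers summed to 57278 to 60118 intensity units on the linear scale in control and 49167 to 60648 in AFO arrays. The arrays of pool 2 stood apart from the rest in both genotypes: summed mesothelial markers came to 581 (control) and 395 (AFO), while the other 4 arrays had 3368 to 3862, and B cell markers to 1813 and 2811 against 191 to 289. Skeletal muscle markers were high in control pool 2 (8762), AFO pool 1 (9470) and AFO pool 2 (42896), against 363 to 833 in the other 3. Fto itself read 5.59 to 6.20 in control and 5.45 to 6.13 in AFO arrays. The labels do not say which exon Cre removes, so these Fto values do not check the genotype.

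Promoters are shown for 3 genes, of the 8 with a promoter sequence, that held a TATA box, the element that places the start of transcription. The genes were chosen for being high in the same arrays, and their start regions are where common letters would be looked for. Each run is the 100 bases before the start site, 5′ to 3′ on the gene's strand, from the RefSeq promoter table (GRCm38.p6), with the letters TATAAA in capitals. They lie at chrX:139800708-139800807 on the plus strand for Cldn2, at chr9:7691990-7692089 on the plus strand for Mmp7 and at chr10:3540174-3540273 on the plus strand for Iyd.
Cldn2: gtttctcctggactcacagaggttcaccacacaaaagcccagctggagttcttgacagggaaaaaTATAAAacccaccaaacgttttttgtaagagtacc
Mmp7: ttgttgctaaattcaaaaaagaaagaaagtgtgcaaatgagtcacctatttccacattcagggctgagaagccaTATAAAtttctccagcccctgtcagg
Iyd: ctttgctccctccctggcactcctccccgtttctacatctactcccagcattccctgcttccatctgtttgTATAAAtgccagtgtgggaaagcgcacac

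The TATAAA of Cldn2 begins 35 bases before the start, that of Mmp7 26 and that of Iyd 29. The table held 11 windows of 300 bases for 8 of the genes, and Calml3 is named only. TATAAA, read on both strands, was in 3 of the 11 windows and in 13.6% of the 32851 windows of all genes. AGGTCA, letters bound by nuclear receptors, was in 3 windows, those of Cuzd1 and 2 overlapping windows of Slc7a9, and in 16.3% of all. GTTGCC, letters found in sites of the RFX factors of ciliated cells, was in the same 2 windows of Slc7a9 and in 12.5% of all.

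Among the genes of junction and transport, Cldn2 encodes a claudin that makes leaky junctions pass cations and water. It read 5.09, 4.52 and 3.93 in control pools 1, 2 and 3 and 9.11, 4.51 and 8.44 in AFO pools 1, 2 and 3. AFO pool 2 lay inside the control range, and the other AFO arrays lay 3.35 or more above all 4. Their mean exceeded the mean of the other 4 arrays by 4.26 log2 units, a 19.2-fold elevation.

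Slc7a9 encodes the light subunit of the transporter that takes up cystine and basic amino acids in kidney and gut. It read 4.35, 4.24 and 3.69 in control pools 1 to 3 and 8.08, 3.64 and 7.45 in AFO pools 1 to 3. Its AFO pool 2 value was the lowest of the 6. The elevation was 3.79, or 13.8-fold.

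Kcnk1 encodes TWIK-1, a potassium channel of the tandem pore family. Its controls were 5.20, 6.16 and 4.20, and AFO pools 1, 2 and 3 were 8.03, 5.29 and 7.98. Control pool 2 was the highest of the 4 low arrays here, unlike in the other 8 genes, and the elevation of 2.79 was the smallest of the set.

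Of the proteins of the apical surface, Lrp2 encodes megalin, the endocytic receptor that recovers proteins in the kidney tubule and the efferent ducts. Its controls were 5.82, 4.89 and 6.13, and AFO pools 1, 2 and 3 were 8.55, 4.75 and 7.86. Both arrays of pool 2 were low, where the mesothelial markers were low too, and the part of the mesothelium in this was not tested. The elevation was 2.81, and the gap to the highest of the other 4 arrays was 1.72, the narrowest of the 9.

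Prom1 encodes prominin-1, a protein of microvilli and other membrane protrusions. Its 3 control values of 6.16, 6.07 and 6.28 were close together, AFO pool 2 read 5.88, and AFO pools 1 and 3 read 9.44 and 9.33. Those AFO values differed by only 0.11 from each other, while the elevation was 3.29.

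Of the secreted and membrane-shed proteins, Mmp7 encodes matrilysin, a small matrix metalloproteinase of glandular epithelium. The controls of Mmp7 were 6.57, 6.0 and 5.65, and its AFO pools 1, 2 and 3 were 10.29, 6.18 and 9.85, an elevation of 3.97 or 15.7-fold. AFO pool 2 again fell among the controls.

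Cuzd1 encodes a protein with CUB and zona pellucida-like domains that is known from pancreas and uterus. The controls of Cuzd1 were 5.11, 4.68 and 4.07, and its AFO pools 1, 2 and 3 were 7.95, 3.79 and 8.06. Here AFO pool 3 was slightly above AFO pool 1, and AFO pool 2 was below every control.

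Inside the cell, Calml3 encodes a calmodulin-like protein of epithelial cells and Iyd the enzyme that strips iodine from iodotyrosines in the thyroid. Calml3 stood at 5.66, 4.96 and 4.55 over the 3 controls and 9.45, 4.80 and 8.94 over AFO pools 1, 2 and 3, an elevation of 4.20 or 18.4-fold. Iyd stood at 4.15, 3.91 and 3.84 over the controls and 7.08, 4.0 and 7.22 over AFO pools 1, 2 and 3, an elevation of 3.17. Iyd is the other gene of the set in which AFO pool 3 was the higher.

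**Figure D1:**
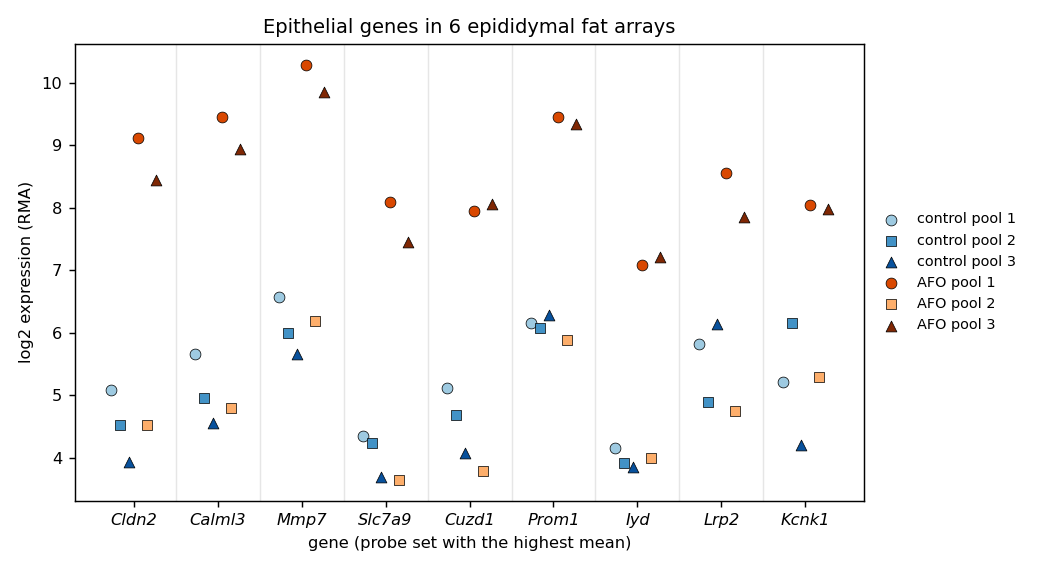
Log2 expression of the 9 genes (x axis, ordered by elevation) in the 6 arrays, 1 point an array, blue for control and orange to brown for AFO pools, with the symbol giving the pool number. AFO pools 1 and 3 lie between 7.08 and 10.29, and for each gene they lie above the other 4 arrays, whose highest value is 6.57.

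Over the set the median elevation was 3.59, with a range from 2.79 to 4.26, and the median over all 13453 tested genes was 0.040. The pattern was put as a number, the gap: the lower of AFO pools 1 and 3 minus the highest of the other 4 arrays. A gap of at least 1 log2 unit was found for 48 of the 13453 genes that passed the filter on low values (0.357%) and for 90 of all 18193 named genes (0.495%). All 9 genes had it, as the choice required, with gaps from 1.72 to 3.35, and in the order of gaps over tested genes they held places 2 to 6, 8, 9, 16 and 18. Just inside the limit of 1 lay Smim22 at 1.05, and just outside it lay Tinag, a basement membrane protein of kidney tubules, at 0.999 and Spag16, a protein of the ciliary axoneme, at 0.997. Without their values in AFO pools 1 and 3, 4 of the 9 genes would have fallen below the filter (mean of 4.88), so that they were tested only through the arrays in which they are high.

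**Figure D2:**
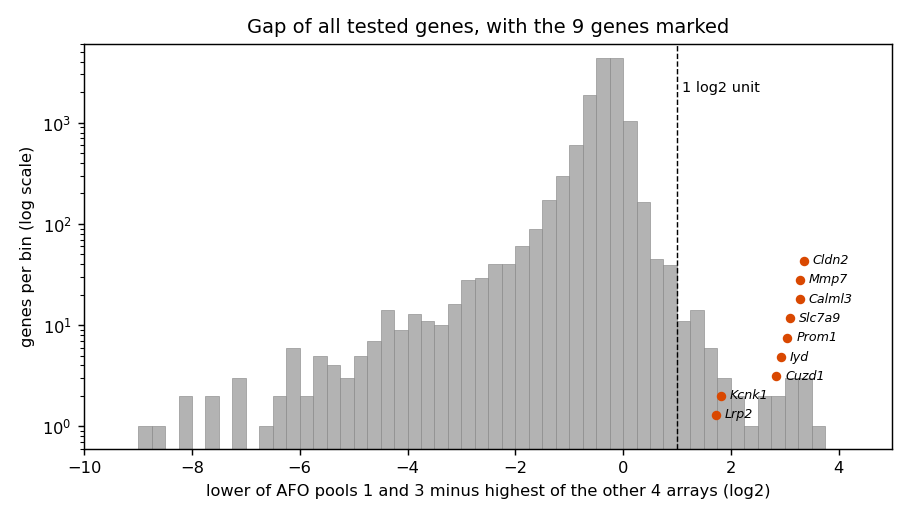
Histogram of the gap (lower of AFO pools 1 and 3 minus the highest of the other 4 arrays, log2) over 13453 tested genes, on a log scale of genes per bin, with the 9 genes as orange dots whose height only keeps the names apart. The dashed line marks 1 log2 unit, which 48 genes reached, and the 9 genes sit between 1.72 and 3.35.

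AFO pool 2 did not share the elevation. Against the mean of the controls, its median over the 9 genes was -0.26, while AFO pool 1 had 3.32 and AFO pool 3 had 3.36. In 5 genes AFO pool 2 lay within the control range, in 4 below it and in 0 above it. Within pools, AFO minus the control of the same number had medians of 3.29, -0.16 and 3.78 for pools 1, 2 and 3. Because AFO pool 2 is low, the AFO minus control difference over all arrays was smaller, from 1.44 for Lrp2 (SE 0.97) to 2.84 for Cldn2 (SE 1.16), with AFO values that spread by SDs of 1.57 to 2.55 (n = 3). The control SDs ran from 0.11 for Prom1 to 0.98 for Kcnk1 (n = 3).

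Across all genes, limma without pairing called 0 genes at an adjusted p under 0.05 (0%), with 139 at an unadjusted p under 0.05, and so 0 of the 9. With pool number as a block, 2 genes were called (0.0149%) and 0 of the 9. The block gave SEs of 0.50 for Lrp2 and 0.84 for Cldn2, smaller than in the unpaired fit. Without both pool 2 arrays 91 were called (0.676%), among them all 9, which were picked for being high in just those AFO arrays. Leaving out AFO pool 2 alone brought 27 calls among 13453 tested genes, and of the 9 all but Lrp2 and Kcnk1 were among them. The rule used this same contrast, and nothing is read from these counts.

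Of the 4 further probe sets, 3 had AFO pools 1 and 3 above the other arrays and 1 had not. Cldn2 had a second one with 6.42 and 5.42 in AFO pools 1 and 3, where the other 4 arrays had 4.47 to 5.01, a gap of 0.42. Kcnk1 had one at 6.41 and 5.49 against 3.45 to 4.21, a gap of 1.28. Of 2 further Lrp2 probe sets, the first read 7.45 and 7.01 in AFO pools 1 and 3, 5.62 and 5.79 in control pools 1 and 3 and only 3.15 and 3.06 in the pool 2 arrays of control and AFO. The last Lrp2 probe set stayed between 4.22 and 4.60 in all 6 arrays. It and the second Kcnk1 probe set had means below the filter on low values. With each gene read as the mean of its probe sets, the median elevation was 3.29.

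AFO pool 1 and AFO pool 3 could also be compared with each other, a difference the choice of genes did not use. Each is a single array, so no test is possible. AFO pool 1 was the higher in 7 of the 9 genes, with a median difference of 0.43 and a range from -0.13 for Iyd to 0.70 for Lrp2. Over all tested genes AFO pool 1 was the higher in 54.1%, with a median of 0.029. On the linear scale, with the mean of the other 4 arrays subtracted, AFO pool 1 held 0.90 (Iyd) to 1.78 (Lrp2) times the excess of AFO pool 3, with a median of 1.38. The genes did not keep to 1 ratio: Lrp2, Cldn2 (1.64) and Slc7a9 (1.60) stood at the upper end and Iyd, Cuzd1 (0.92), Kcnk1 (1.05) and Prom1 (1.09) at the lower.

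The control arrays differed as well, at a low level. Control pool 1 was the highest of the 3 controls in 6 of the 9 genes (Cldn2, Mmp7, Calml3, Slc7a9, Cuzd1 and Iyd), against 24.5% of all tested genes, and control pool 3 was the lowest in 7, against 28.7%. For Cldn2 the range over controls was 3.93 to 5.09 and for Calml3 4.55 to 5.66. These values are low, RMA draws low signals together, and the counts were made after the values were seen.

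Partners of the proteins were read next. Slc3a1, the heavy subunit that Slc7a9 needs to reach the membrane, stayed between 4.28 and 4.55 in all arrays. Cubn, which encodes cubilin, the receptor that works with megalin, read 4.93 and 5.07 in AFO pools 1 and 3 and 4.60 to 5.40 in the others, and Amn, which carries cubilin to the surface, 3.86 to 4.27 in all 6. Dab2, the adaptor of megalin uptake, read 10.02 and 9.63 in AFO pools 1 and 3 and 8.67 to 9.52 elsewhere, and Lrpap1, the chaperone of the receptor, 9.47 to 10.36 in all. Calml4, a calmodulin-like protein of brush borders, had the pattern, at 9.04 and 8.58 against 5.15 to 7.30. Dio1, a deiodinase of thyroid hormone, had it at a low level, with 4.35 and 3.85 against 2.30 to 2.55. Cldn10, another pore-forming claudin, read 8.05 and 7.82 against 5.59 to 7.03, a gap of 0.79. Calml4 and Cldn10 were low in both arrays of pool 2, where the mesothelial markers were low too. In control and AFO pool 2 Calml4 read 5.15 and 5.51, and in control pools 1 and 3 it read 7.16 and 7.30. Cldn10 read 5.59 and 5.96, and 6.94 and 7.03, in the same arrays. The part of the mesothelium in this was not tested. Prom2, the relative of prominin-1, had a gap of 0.12, and the thyroid iodide transporter Slc5a5 stayed between 5.16 and 5.40. Of 18 measured partners and relatives 2 had a gap of at least 1, beside the 0.495% of all named genes.

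Lists of markers for 21 epithelia and tract tissues and states, and for 8 other cell types, were set beside these genes to see which lining the mix resembles. Members of a list are described by counts, with no test, and fewer cells of a type and less RNA per cell cannot be told apart in bulk tissue. The genes of motile cilia had the highest share. Of 32 measured, 26 had both AFO pools 1 and 3 above the other 4 arrays, against 9.0% of all named genes, and 5 had a gap of at least 1. Ccdc153, an axonemal protein, read 7.36 and 7.34 in AFO pools 1 and 3 and 3.80 to 4.34 in the others. Dynlrb2, a dynein light chain, read 7.47 and 6.71 against 3.25 to 3.59. Rsph4a, a radial spoke protein, had a gap of 1.84 and Fam183b one of 1.72. Foxj1, the transcription factor that switches on motile cilia, was at 7.17 in AFO pool 1, 5.42 in AFO pool 3 and 4.02 to 4.57 in the others. Foxj1 and Cfap52, an axonemal protein, were the 2 cilia genes at least 1 log2 unit above the other 5 arrays in AFO pool 1 alone. Ccno, Dnah9, Dnaic1, Dnaic2, Rsph9 and Cfap43 were not above in both AFO pools, and the gap of Spag6 was only 0.02. Of the 32 cilia genes 18 passed the filter on low values. Of the 5 with a gap of at least 1, only Ccdc153 passed it.

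Of 14 measured markers of the absorptive cells of the efferent ducts, 7 were above the other 4 arrays in both AFO pools. Without AFO pool 3, where AFO pool 1 alone was compared, 11 were. The shares of all named genes were 9.0% and 19.9%. Cdh16, a cadherin of kidney and other tubules, read 8.11 and 7.11 against 4.86 to 5.46, and it alone of the list had a gap of at least 1. Pax8, a transcription factor of kidney, thyroid and the male ducts, read 5.47 and 5.19 against 4.07 to 4.20, a gap of 0.99. Esr1, the oestrogen receptor on which fluid uptake in the efferent ducts depends, read 9.69 and 9.65 against 8.05 to 8.73. Emx2, a transcription factor of the urogenital ducts, read 6.37 and 6.19 against 4.70 to 5.35, and the aquaporin Aqp9 6.68 and 6.44 against 4.89 to 5.71. Other markers of the same cells did not follow. The sodium-proton exchanger Slc9a3 read 5.01 and 5.28 against 4.91 to 5.47, and Aqp1, which blood vessels also express, read 10.16 to 10.71 in all arrays. Car14, Slc4a4 and Slc9a3r1 were not above in both AFO pools, and neither were Cubn and Amn, given with the partners. Of the list, 2 genes were not analysed here.

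Of general epithelial genes 11 of 27 (40.7%) were above in both AFO pools, and 2 had a gap of at least 1. The count was 18 (66.7%) without control pool 2 and 22 (81.5%) without both pool 2 arrays. Over all named genes the shares in these settings were 10.7% and 15.9%. The efferent duct list had 7 of 14 and 9 of 14 (64.3%) there, so the order of these lists depends on the arrays of pool 2. Cldn7 read 7.34 and 6.44 against 4.32 to 5.14. Krt8, a keratin of simple epithelia and of mesothelium, read 9.23 and 8.93, against 6.98 to 7.78 in controls and 4.63 in AFO pool 2. Cdh1, which encodes E-cadherin, read 6.59 and 5.82 in AFO pools 1 and 3, but 6.13 in control pool 2 and 2.73 to 3.87 in the other 3. Epcam moved little, from 6.25 to 6.60 in the 4 arrays to 6.95 and 6.85 in AFO pools 1 and 3. Markers of basal and stratified epithelium had 0 of 8 above in both, beside 9.0% of all named genes.

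Kidney tubule genes were split. Pdzk1, a scaffold of brush border transporters, had the pattern (7.63 and 6.75 against 4.81 to 5.27), and Hnf4a, a transcription factor of proximal tubule, liver and gut, had a gap of 0.55. Slc5a12, a lactate transporter of the tubule, was also above in both AFO pools, at a low level (3.02 and 3.12 against 2.72 to 2.86). The other 18 of the 21 were not, and the median elevation of the list was -0.08. Slc34a1, the phosphate transporter, stayed between 4.66 and 5.13, Miox between 3.73 and 4.10 and Slc22a6, the organic anion transporter, between 5.49 and 6.08. In the other kidney segments Umod, which encodes uromodulin, had a low-level gap of 1.05 (4.81 and 4.02 against 2.62 to 2.97). It was the only 1 of 11 above in both, beside 9.0% of all named genes.

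Iyd is best known from thyroid and Cuzd1 from pancreas among other organs. In the thyroid list 2 of 6 (33.3%) were above in both AFO pools. Tg, which encodes thyroglobulin, read 6.35 and 6.10 against 4.72 to 5.73. Its lowest values were 4.72 in control pool 2 and 5.04 in AFO pool 2. Pax8, given above, was the other of the 2 genes. Tshr (6.24 to 9.06) and Nkx2-1 (4.96 to 5.26) had AFO pools 1 and 3 inside or below the others. In the pancreas list 0 of 12 were above in both, with Cela1 at 6.81 to 7.48 and Prss2 at 6.02 to 6.34. Seminal vesicle (0 of 8, with Svs5 at 4.15 to 4.89 and Svs3a at 4.10 to 4.54), prostate (0 of 6, with Tmprss2 at 6.15 to 7.42 and Tgm4 at 5.03 to 5.28), urothelium (0 of 4, with Upk1b at 6.02 to 8.66 and Upk2 at 6.43 to 6.92), airway (0 of 8, with Muc5b at 5.72 to 6.16 and Sftpb at 5.62 to 6.25) and oviduct and uterus (0 of 6, with Muc16 at 4.64 to 7.50 and Msx1 at 5.93 to 6.34) had none. Intestine had 1 of 11, Vil1, which encodes the brush border protein villin (5.75 and 5.25 against 3.68 to 4.11). Liver and bile duct had 2 of 6, among them Cftr, the chloride channel of ducts (5.33 and 4.96 against 3.11 to 3.81). Choroid plexus had 2 of 8, with Clic6 at 7.19 and 7.13 against 6.22 to 6.40 and Ttr at 6.11 to 6.38 in all. Salivary and mammary gland had 1 of 10, with Amy1 at 10.27 to 11.06 and Smr2 at 5.73 to 7.65. Of all named genes 9.0% were above in both AFO pools. Counts of 0 or 1 in lists this short lie near that share, and nothing is read from them about a tissue.

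Testis genes had another pattern. Of 10 germ cell markers 0 were above in both AFO pools, with Sycp3 at 6.63 to 8.39 and Prm1 at 6.31 to 7.76, while Tnp1, a transition protein of maturing sperm, was high in control pool 1 (6.01) and AFO pool 3 (5.26) and at 3.11 to 3.35 in the other 4. Prm2, a protamine, followed Tnp1 with 6.12 and 5.58 against 4.08 to 4.57. Of 10 markers of Sertoli and Leydig cells 1 was, with Star at 6.11 to 6.55 and Dhh at 5.52 to 6.44. In the list of epithelial injury 2 of 7 were above in both. Beside these counts and those of the testis lists stands the 9.0% of all named genes. Lcn2, which encodes lipocalin 2, had the pattern, and Havcr1, the kidney injury marker, read 4.95 and 5.04 against 4.63 to 5.76.

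**Figure D3:**
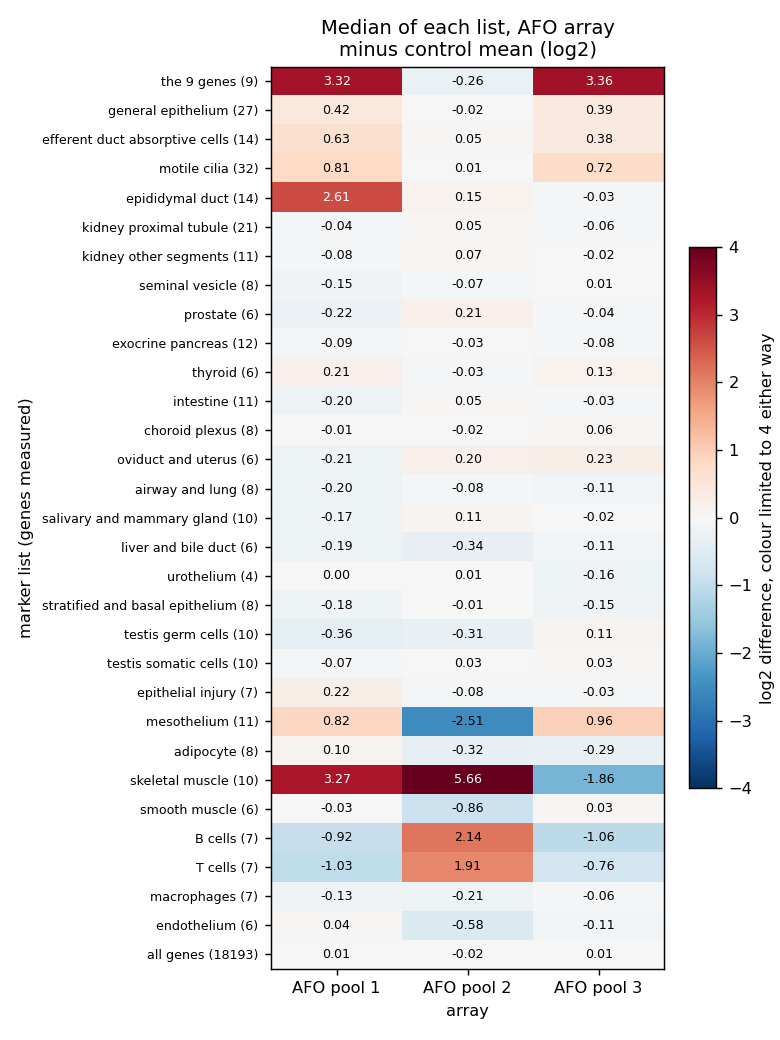
Median log2 difference from the mean of the 3 control arrays for each marker list (y axis, genes measured in brackets) in the 3 AFO arrays (x axis), as printed in the cells and shown by colour. The 9 genes, motile cilia (0.81 and 0.72) and efferent duct markers (0.63 and 0.38) are positive in AFO pools 1 and 3. So are mesothelial (0.82 and 0.96), general epithelial (0.42 and 0.39) and thyroid markers (0.21 and 0.13). Epididymal duct markers are high in AFO pool 1 (2.61) and at -0.03 in AFO pool 3.

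The epididymal duct differed from the set in its arrays. Of 14 measured markers 8 were at least 1 log2 unit above the other 5 arrays in AFO pool 1 alone, against 0.22% of all named genes, and 0 had the pattern of AFO pools 1 and 3. Lcn8, a lipocalin secreted near the head of the epididymis, read 8.72 in AFO pool 1 and 4.44 to 4.92 in the other 5, with 4.54 in AFO pool 3. Gpx5, the secreted glutathione peroxidase of the same region, read 8.92 against 5.61 to 5.85. Adam7, an epididymal membrane protein, read 8.07 against 4.64 to 5.10, and Cst12, a cystatin, 7.75 against 3.23 to 3.78. The other 4 were Lcn9, Rnase10, Adam28 and Cst11. The 9 genes were high with these markers in AFO pool 1 and without them in AFO pool 3, where the epididymal list summed to 310 intensity units, within the 296 to 357 of the controls, and to 2241 in AFO pool 1. In AFO pool 3 the 9 genes were high while the sum of the measured epididymal markers was at the control level. The part of the epididymal duct in their levels was not tested. Of the epididymal list 11 genes were not analysed here, and the comparison of single arrays was chosen after the values were seen.

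**Figure D4:**
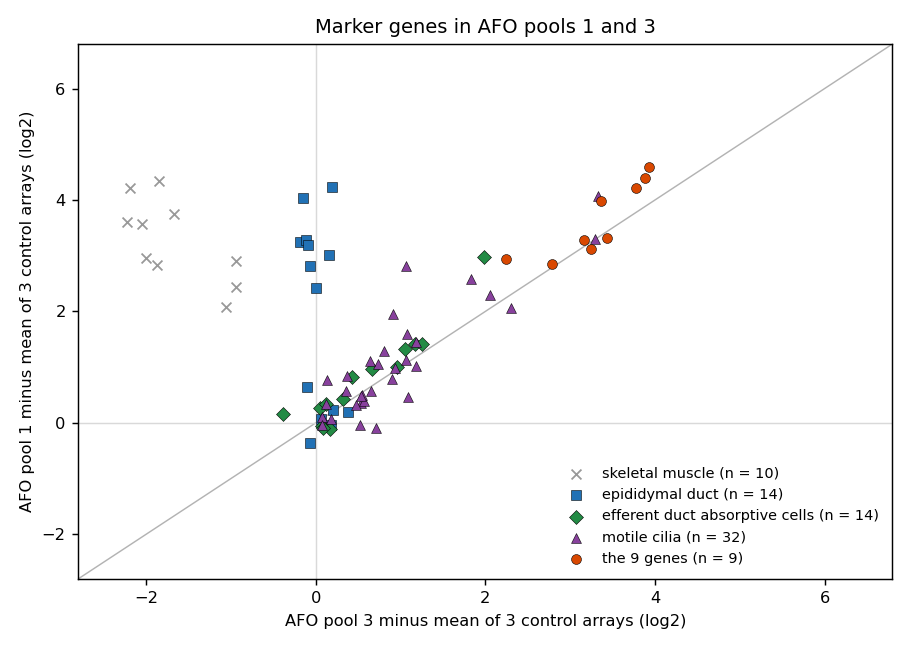
Each point is 1 gene, with its log2 difference from the mean of the 3 control arrays in AFO pool 3 (x axis) and in AFO pool 1 (y axis), and the grey diagonal marks equal differences. The 9 genes and most motile cilia and efferent duct markers lie near the diagonal, with Foxj1 (2.81 in AFO pool 1, 1.06 in AFO pool 3) and Cfap52 (1.96 and 0.91) among those above it, while 8 of 14 epididymal markers stand high on the y axis near 0 on the x axis, and the 10 muscle markers are above 0 in AFO pool 1 and below 0 in AFO pool 3.

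The genes outside the set with the widest gaps over the 6 arrays were mostly in none of the marker lists. The largest gap of all tested genes belonged to Ccdc198, a coiled-coil protein, which read 7.84 and 7.65 in AFO pools 1 and 3 and 3.26 to 4.03 in the others. Ccdc153 followed with 3.00, then Tmem212, a membrane protein, with 2.75 (7.99 and 7.48 against 3.88 to 4.74), and Egfl6, a secreted protein with EGF-like repeats, with 2.63. Lcn2 read 10.50 and 10.60 against 8.04 to 8.14 in controls and 6.78 in AFO pool 2. Rnf128, a ubiquitin ligase, had a gap of 2.22 and Enkur, a protein of cilia and sperm tails, 1.83. Bex1, with a gap of 2.02, differed from the set in AFO pool 2, where it read 7.20 against 4.45 to 5.73 in controls. Pipox, a peroxisomal oxidase of kidney and liver, had a gap of 1.78, the esterase Aadac 1.71, the glutathione transferase Gstm6 1.65 and Cdh16 1.65. The 39 other genes of the pattern had a median elevation of 1.98 and were higher in AFO pool 1 than in AFO pool 3 in 34 of 39, with a median difference of 0.37. Control pool 1 was the highest control in 20 of the 39.

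Markers of other cells did not have the pattern of a gap of at least 1. Skeletal muscle markers had medians, against the control mean, of 3.27, 5.66 and -1.86 in AFO pools 1, 2 and 3, with Tnnc2 at 10.39, 12.62 and 4.97. Muscle was highest in AFO pool 2, where the 9 genes were low. Of the AFO arrays in which the 9 genes were high, muscle was high in pool 1 and low in pool 3. Mesothelial markers had medians of 0.82, -2.51 and 0.96, and read in AFO pools 1 and 3 much as in control pools 1 and 3, with Upk3b at 9.11 and 9.43 against 9.39 and 9.38. B cell (-0.92, 2.14 and -1.06) and T cell markers (-1.03, 1.91 and -0.76) were high in AFO pool 2. Macrophage markers (-0.13, -0.21 and -0.06), endothelial markers (0.04, -0.58 and -0.11), smooth muscle markers (-0.03, -0.86 and 0.03) and adipocyte markers (0.10, -0.32 and -0.29) had no list member with a gap of at least 1, and neither had the mesothelial, muscle, B and T cell lists. By the count used for the epithelia, 2 of 11 mesothelial markers, Rspo1 and Krt19, were above in both AFO pools (18.2%, beside 9.0% of all named genes). No marker of the other cell lists in this paragraph was. The median elevation was 1.57 for mesothelium, 0.78 for motile cilia and 0.65 for the efferent duct list. Without both pool 2 arrays it was -0.16, 0.84 and 0.29. The part of these cells in the levels of the 9 genes was not tested.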

How the data were processed

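The deposited values are log2 expression levels per probe set, made by the authors with RMA in Affymetrix Expression Console 1.4, per the submitters' processing notes, from biotin-labelled cRNA, per the labels' protocols. RMA subtracts background, equalises the distributions of the arrays and summarises the probes, so low values are drawn together and a shift of most genes is not visible. Array medians were 5.35 to 5.43.

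Of 45101 probe sets 64 were controls, 34945 had 1 gene symbol in the platform annotation, 932 had several and 9160 were not listed. Of the gene IDs 99.4% were found in RefSeq (GRCm38.p6). The probe set of highest mean stood for each of 18193 genes, and 13453 genes with a mean at or above the 40th percentile of probe sets (4.88) were tested. AFO was compared with control across all genes by limma 3.58.1 in R 4.3.3 (empirical Bayes with trend, unpaired, Benjamini-Hochberg), checked on simulated data. Other values came from Python 3.11.15. The labels call the pools independent, so the spread is that between pools.

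The 9 genes, the gap and the 30 marker lists, of whose 351 genes 307 were measured, were chosen with earlier results of these data known. Named were the 9 genes, the 12 others with the widest gaps, and from each list up to 4 genes with the pattern or the 2 of highest mean. Genes with a stated role were added after their values were seen. Both genotypes have pools 1 to 3. Across genes, arrays of equal number deviated from their genotype means with correlations of 0.594, 0.799 and 0.589, over the 0.1 that the pairing rule asks for. Pools 1 and 3 also correlated with each other (0.441 and 0.362), and what a number shares is not given in the labels. As the labels state no pairing, the unpaired fit was kept as the main one, with the block as an alternative. The unpaired SEs therefore include any variation shared by arrays of equal number. Of 4 promoter motifs searched, 1 is not reported here. Alternatives covered filters, rescaling, probe set choice, the block and omitted arrays.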

Additional observations from a re-analysis of the deposited data

How the results depend on the processing

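The number of genes with a gap of at least 1, 48, was 90 without the filter, 18 with the filter at the 60th percentile, 132 with a gap of 0.5, 14 with a gap of 2 and 80 without both pool 2 arrays, the last chosen after seeing the data. With 1 array left out it ran from 52 to 96, the highest without AFO pool 3, when AFO pool 1 alone set the gap. All 9 genes were in it under each setting except a gap of 2 (7 of 9) and the filter at the 60th percentile (5 of 9). Quantile normalisation and median centring gave 54 and 55, sharing 46 and 48 genes with the 48. The limma count of 0 became 2 with the replicate block and 91 without both pool 2 arrays, and ran from 0 to 27 with 1 array left out, with 27 where AFO pool 2 was omitted. The median AFO minus control difference of the 9 genes, 2.13, ran from 1.45 to 3.41, and their median elevation of 3.59 from 3.29 to 3.82. Of 32 motile cilia genes 25 to 29 were above the other arrays under the rescalings, the mean of probe sets and each omission. For the efferent duct list (7 of 14) these counts ran from 7 to 11 and for general epithelium (11 of 27) from 11 to 22. Both AFO pools 1 and 3 had to be above, save where 1 of them was left out and only the other was compared. The share of all named genes ran from 7.92% with the mean of probe sets to 23.9% without AFO pool 1. No detection call was used, and values near the lower end have no firm order.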
